A study of Homo sapiens with 8 samples.

Results

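The expression of 7 genes of the sodium pump, listed by symbol, was followed in A549 cells exposed to a seed extract or to a cardiac glycoside isolated from it. They were the beta-subunit genes ATP1B1, ATP1B2 and ATP1B3 and the regulator genes FXYD2, FXYD3, FXYD5 and FXYD6, that is 7 of 19046 genes measured and kept. A549 is an established line of human lung carcinoma cells. In the EEDS series the cells received the vehicle or an ethanol extract of Descurainia sophia seeds (EEDS) at 1.25, 5 or 20 μg/mL, and in the helveticoside series the vehicle or helveticoside at 3.75, 15 or 60 nM. The methods of the study give an exposure of 24 h for the arrays and the sample labels give 48 h. For each condition, RNA of 3 cultures was pooled and hybridized to 1 one-colour array, so the 8 arrays hold no replicate of any dose and no p-value exists for a single dose.

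The sodium pump carries sodium out of the cell and potassium into it at the cost of ATP. Its catalytic subunit holds the site to which cardiac glycosides bind and through which they stop transport. A beta subunit, a glycoprotein with a single membrane span, is needed to fold the catalytic subunit and to bring it to the cell surface, and beta subunits of neighbouring cells also hold on to each other. FXYD proteins are small membrane proteins that join the finished pump and set its affinity for sodium and potassium. In epithelia of the lung, the pump drives the clearance of fluid from the air spaces.

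The promoter of ATP1B1 is shown because this gene rose with both agents, that of ATP1B3 because it rose with helveticoside, and that of FXYD5 as a gene of the same system with no dose trend. Each line gives the 250 bases before the annotated start, on the plus strand, from RefSeq on GRCh38.p14. The ATP1B1 stretch is chr1:169106440-169106689, the ATP1B3 stretch chr3:141876393-141876642 and the FXYD5 stretch chr19:35154485-35154734. Capitals mark the searched letters described after the lines.
ATP1B1: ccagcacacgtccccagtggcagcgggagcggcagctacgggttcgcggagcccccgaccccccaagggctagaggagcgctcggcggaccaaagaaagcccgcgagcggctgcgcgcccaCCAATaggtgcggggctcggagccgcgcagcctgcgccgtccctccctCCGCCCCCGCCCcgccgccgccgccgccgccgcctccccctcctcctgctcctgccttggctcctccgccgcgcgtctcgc
ATP1B3: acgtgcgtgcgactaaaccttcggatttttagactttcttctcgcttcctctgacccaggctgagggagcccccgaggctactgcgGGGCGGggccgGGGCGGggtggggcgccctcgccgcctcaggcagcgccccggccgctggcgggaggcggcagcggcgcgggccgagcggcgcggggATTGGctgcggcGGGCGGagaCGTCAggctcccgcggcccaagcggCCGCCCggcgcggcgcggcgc
FXYD5: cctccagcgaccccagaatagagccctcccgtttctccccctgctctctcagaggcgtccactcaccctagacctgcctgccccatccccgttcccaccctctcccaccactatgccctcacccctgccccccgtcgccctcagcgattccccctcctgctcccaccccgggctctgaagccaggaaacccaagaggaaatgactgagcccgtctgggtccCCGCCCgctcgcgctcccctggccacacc
The letters searched, on both strands, were the GC box GGGCGG, the CCAAT box CCAAT, the AP-1 site TGAGTCA, the cAMP response element TGACGTCA, the shorter TGACG that it contains, and the EGR1 site GCGTGGGCG. ATP1B1 held 2 GC boxes and 1 CCAAT box, ATP1B3 held 4 GC boxes, 1 CCAAT box and 1 TGACG, and FXYD5 held 1 GC box. No marked stretches overlapped. Of 35116 promoter windows of this length, 42.6% held a GC box, 32.0% a CCAAT box and 21.2% TGACG. The AP-1 site, the full cAMP response element and the EGR1 site were in 4.2%, 1.65% and 0.72% of all windows and in none of these 3 stretches. The bases G and C made up 77.6%, 77.2% and 68.0% of the 3 stretches in the order shown. Promoters were found for 6 of the 7 genes in the table used. For FXYD6, which had no dose trend either, 1 window held 2 GC boxes and another 1 CCAAT box and 1 TGACG. ATP1B2, also without a trend, held 1 TGACG, and FXYD3 held 0 of the searched letters. A tie between these letters and the trends was not tested. FXYD2 and FXYD6 lie on chromosome 11, where the annotation also holds a joint gene, FXYD6-FXYD2, that overlaps both.

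Of 43118 probe spots per array, none was saturated and 246 to 331 were left out as outliers called by the scanner software. That software called 63.3% to 64.9% of the probes well above background on the EEDS arrays and 54.5% to 59.5% on the helveticoside arrays. Levels below are quantile-normalized, background-corrected signals of 1 probe per gene, and a probe's signal is compared with itself only. The error printed with a signal ratio is the scanner software's own error of the 2 spots, which covers the reading of a spot and not the spread between cultures or arrays. All 10 markers listed for A549 (KRT8, KRT18, KRT19, EPCAM, CDH1, FOXA2, AKR1B10, AKR1C1, ALDH1A1 and NQO1) were well above background on every array. Their summed signal was 1196095 on the EEDS control and 691212 at 20 μg/mL, and 1158344 on the helveticoside control and 582029 at 60 nM. Of these 10 genes 4 fell in a dose trend with EEDS, where 7.85% of all genes fell, and 3 with helveticoside, where 5.8% fell, and their part in the results below was not tested. Of 3 immune, 3 endothelial and 3 fibroblast or muscle markers, 1, 1 and 2 were well above background on all arrays, with summed signals of 110 to 246, 137 to 234 and 822 to 1504. The arrays were quantile-normalized, so these signals follow a transcript's share of the RNA and not the number of cells. In bulk RNA of this kind, fewer cells with a transcript and less of that transcript per cell cannot be told apart.

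**Figure D1:**
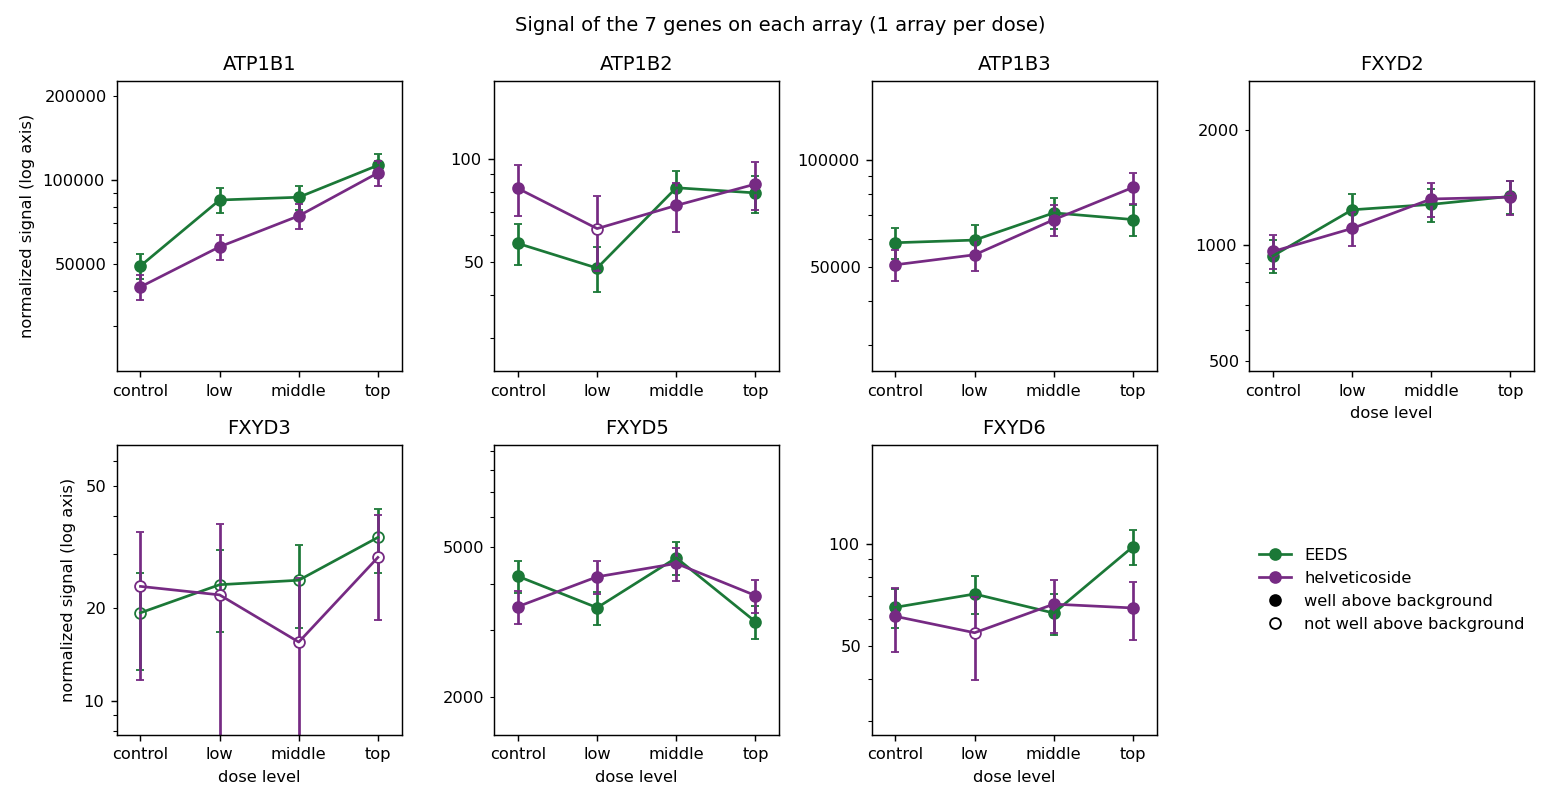
Normalized signal (vertical log axis, own range in each panel) of the probe used for each of the 7 genes on the control array and at the low, middle and top dose of EEDS (green) and helveticoside (purple), 1 array per point. Bars are the scanner software's spot error, drawn at no more than 95% of the signal, and open points were not well above background; ATP1B1 climbs from 49325 to 112862 with EEDS and from 41514 to 106025 with helveticoside.

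Among the 7 genes, ATP1B1 rose with both agents and was the one gene whose chosen probe was over 2-fold from its control at a top dose. Apart from the chosen probes, 2 probes of FXYD3 were each over 2-fold higher on 1 top-dose array, as given with that gene. ATP1B3 rose with helveticoside. No gene of the set fell in a dose trend, and for ATP1B2 and the 4 FXYD genes no trend passed the test. A trend here is the slope of the log2 signal per dose step (control, low, middle and top, with doses spaced 4-fold), fitted with limma over all 8 arrays with a line for each series. Its test takes the scatter of single arrays about the lines, with 4 residual degrees of freedom, in place of replicates, and p-values were adjusted over all 19046 genes by the Benjamini-Hochberg method. Rising trends at an adjusted p under 0.05 were found for 1 of the 7 genes with EEDS, where 7.27% of all genes rose and 7.85% fell. With helveticoside 2 of the 7 genes rose, where 5.48% of all genes rose and 5.8% fell. ATP1B1, ATP1B3, FXYD2 and FXYD5, 4 of the 7 genes, were well above background on all 8 arrays.

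Single doses were compared without a test. At 1.25 and 5 μg/mL EEDS 0 of the 7 genes were more than 2-fold from the control, against 7.88% and 15.8% of all genes. At 20 μg/mL it was 1 of 7, against 27.8% of all genes. At 3.75 and 15 nM helveticoside 0 of the 7 genes were over 2-fold, against 7.69% and 15.1% of all genes, and at 60 nM it was 1 of 7, against 23.6%. The median log2 ratio of 6 genes, leaving out FXYD3, whose chosen probe was not well above background on any array, was 0.078, 0.36 and 0.50 at the rising doses of EEDS, beside 0.012, 0.011 and 0.021 over all genes. With helveticoside it was 0.15, 0.40 and 0.28, beside 0.014, -0.036 and -0.004. With these settings the share of the set over 2-fold was not above that of all genes at any dose, but at 60 nM this turned in 6 of 11 other settings. There 2 of 7 genes (28.6%) were over 2-fold, against 12% to 23.8% of all genes, in 5 settings, and 1 of the 4 genes kept (25%), against 24.2%, when genes had to be well above background on each array. The second gene was ATP1B3 with 75th percentile scaling and FXYD3 in the other 4 settings. With 75th percentile scaling 1 of 7 genes (14.3%) was also over 2-fold at 15 nM, against 13.6% of all genes.

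ATP1B1 encodes beta 1, the beta subunit found in most epithelia. Its signal was 49325 on the EEDS control, 84837 at 1.25 μg/mL, 86775 at 5 μg/mL and 112862 at 20 μg/mL. All 3 treated arrays were above the control, and the low and middle doses differed from each other by less than the spot error. The log2 ratio to the control was 0.78, 0.82 and 1.19 at the rising doses, each ± 0.20 (scanner error), which made the top dose 2.29-fold higher. In the helveticoside series the signal was 41514 on the control, 57731 at 3.75 nM, 74436 at 15 nM and 106025 at 60 nM. Here each dose was above the one before it. The log2 ratios were 0.48, 0.84 and 1.35, each ± 0.20, and the top dose was 2.55-fold higher. At the top doses 90.0% of all genes had a lower log2 ratio than ATP1B1 with EEDS and 93.6% with helveticoside.

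The slope of ATP1B1 was 0.36 per dose step with EEDS (SE 0.066, 95% interval 0.20 to 0.53, limma adjusted p = 0.0269). With helveticoside it was 0.44 (SE 0.066, interval 0.28 to 0.61, adjusted p = 0.0231). Over 3 steps these lines amount to a 2.12-fold and a 2.51-fold rise. The EEDS slope was 0.21 without the EEDS control array, and its call was also lost without the 20 μg/mL array or any one of the 3 arrays treated with helveticoside. The helveticoside call was lost without the 5 μg/mL EEDS array or any one of the 4 arrays of its own series, with slopes of 0.42 to 0.45 throughout. Both calls, and that of ATP1B3 below, were lost with concentration on a linear scale, with each series fitted alone, and without the lowest or the middle doses.

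ATP1B3 encodes beta 3, a widely expressed beta subunit that is also known as a surface antigen of blood cells. With helveticoside its signal was 50575 on the control, 53975 at 3.75 nM, 67837 at 15 nM and 83713 at 60 nM. The middle and top doses stood above the control by more than the spot error, and the low dose did not. The log2 ratios were 0.094, 0.42 and 0.73, each ± 0.20, and the slope was 0.25 per step (SE 0.042, interval 0.15 to 0.35, limma adjusted p = 0.0276). This call was lost without the 1.25 μg/mL EEDS array or any one of the 4 helveticoside arrays, with slopes of 0.21 to 0.32. With EEDS the signal was 58387 on the control and 59400, 70925 and 67900 at the rising doses. The log2 ratios were 0.025, 0.28 and 0.22, and the slope was 0.091 (SE 0.042, adjusted p = 0.198), which did not pass the test.

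ATP1B2 encodes beta 2, known from glia and neurons as an adhesion molecule. Its signal was close to background on every array, with a scanned signal of 3.45 to 6.75 times the local background. With EEDS it was 56.6 on the control and 47.95, 82.31 and 79.51 at the rising doses. The low dose lay under the control and the other two above it, with log2 ratios of -0.24 ± 0.29, 0.54 ± 0.26 and 0.49 ± 0.27. With helveticoside it was 81.94 on the control, 62.54 at 3.75 nM, where it was not well above background, 73.08 at 15 nM and 84.37 at 60 nM. At 3.75 nM the log2 ratio was -0.39 ± 0.43, within the spot error, and at 15 and 60 nM the log2 ratios were -0.17 ± 0.34 and 0.042 ± 0.34. The slopes were 0.23 with EEDS (SE 0.121, limma adjusted p = 0.262) and 0.035 with helveticoside (SE 0.121, adjusted p = 0.943). Directions of ATP1B2 depended on the control and the scaling: at 3.75 nM the log2 ratio was 0.14 against the EEDS control, and at 20 μg/mL it was -0.043 against the helveticoside control and -0.038 with 75th percentile scaling.

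FXYD2 encodes the gamma subunit of the pump, best known from the kidney tubule, where it lowers the affinity of the pump for sodium. The brighter of its 2 probes gave 938 on the EEDS control and 1237, 1278 and 1341 at 1.25, 5 and 20 μg/mL. With helveticoside it gave 963 on the control and 1106, 1320 and 1335 at 3.75, 15 and 60 nM. All 6 treated arrays were above their controls, by log2 ratios of 0.40, 0.45 and 0.52 with EEDS and 0.20, 0.45 and 0.47 with helveticoside, each ± 0.20 to 0.21. The slopes were 0.16 with EEDS (SE 0.058, interval 0.014 to 0.30, limma adjusted p = 0.123) and 0.17 with helveticoside (SE 0.058, interval 0.022 to 0.31, adjusted p = 0.127), and neither passed the test. The second probe, designed to another transcript of the gene, did not follow the first with helveticoside. It gave 101 on the EEDS control and 113, 116 and 129 at the rising doses, and 110 on the helveticoside control and 69.09, 94.75 and 95.92. Its log2 ratios were 0.17, 0.19 and 0.36 with EEDS and -0.67, -0.21 and -0.19 with helveticoside, and its slope with helveticoside was -0.012, on the other side of 0 from that of the first probe.

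FXYD5, also called dysadherin, is a regulator of the pump that weakens contacts between epithelial cells and is found in many carcinomas. Its signal was 4182 on the EEDS control and 3450, 4683 and 3167 at the rising doses, lower than the control at the low and top doses and higher at the middle dose. With helveticoside it was 3473 on the control and 4169, 4524 and 3717, with all 3 treated arrays above the control. The log2 ratios were -0.28, 0.16 and -0.40 with EEDS and 0.26, 0.38 and 0.098 with helveticoside, each ± 0.20. The slopes were -0.076 (SE 0.101, limma adjusted p = 0.725) and 0.041 (SE 0.101, adjusted p = 0.894).

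FXYD6, a regulator first described in brain, gave 65.04 on the EEDS control and 71.19, 62.54 and 98.14 at the rising doses. The array at 20 μg/mL was the highest of the 8, with a log2 ratio of 0.59 ± 0.26. That ratio was 0.275 on the signal as scanned and 0.092 with 75th percentile scaling, where the EEDS slope was -0.005. The scanned signal was close to background, at 3.67 to 7.62 times the local background. With helveticoside the signal was 61.15 on the control, 54.71 at 3.75 nM, where it was not well above background, 66.45 at 15 nM and 64.74 at 60 nM. The slopes were 0.16 (SE 0.101, limma adjusted p = 0.344) and 0.053 (SE 0.101, adjusted p = 0.842).

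FXYD3, a regulator found in several carcinomas, had 4 probes, and its brightest was not well above background on any array. The signal of that probe was 19.34 on the EEDS control and 23.86, 24.67 and 33.98 at the rising doses, and 23.56 on the helveticoside control and 22.11, 15.54 and 29.26, so no fold is given for it. Its fitted slopes were 0.25 (SE 0.145, limma adjusted p = 0.303) with EEDS and 0.043 (SE 0.145, adjusted p = 0.943) with helveticoside. On the signal as scanned and after normexp correction the fitted slope of FXYD3 with helveticoside was 0.57 and 0.59 and passed the test, but there the second probe was the brightest and stood for the gene. The second probe was well above background on 1 array alone, that of 60 nM helveticoside. It read 252 there, against 15.37 on the control, 8.306 at 3.75 nM and 23.24 at 15 nM, and was at least 5.36-fold higher than the control, while the EEDS arrays gave 7.41 to 12.82. The fourth probe was well above background at 20 μg/mL EEDS alone. It read 57.9 there, against 10.28 on the control and 13.84 and 8.579 at the lower doses, at least 2.47-fold higher than the control, while the helveticoside arrays gave 8.397 to 8.68. The third probe was not well above background on any array. No array showed a high signal on more than 1 of the 4 probes.

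**Figure D2:**
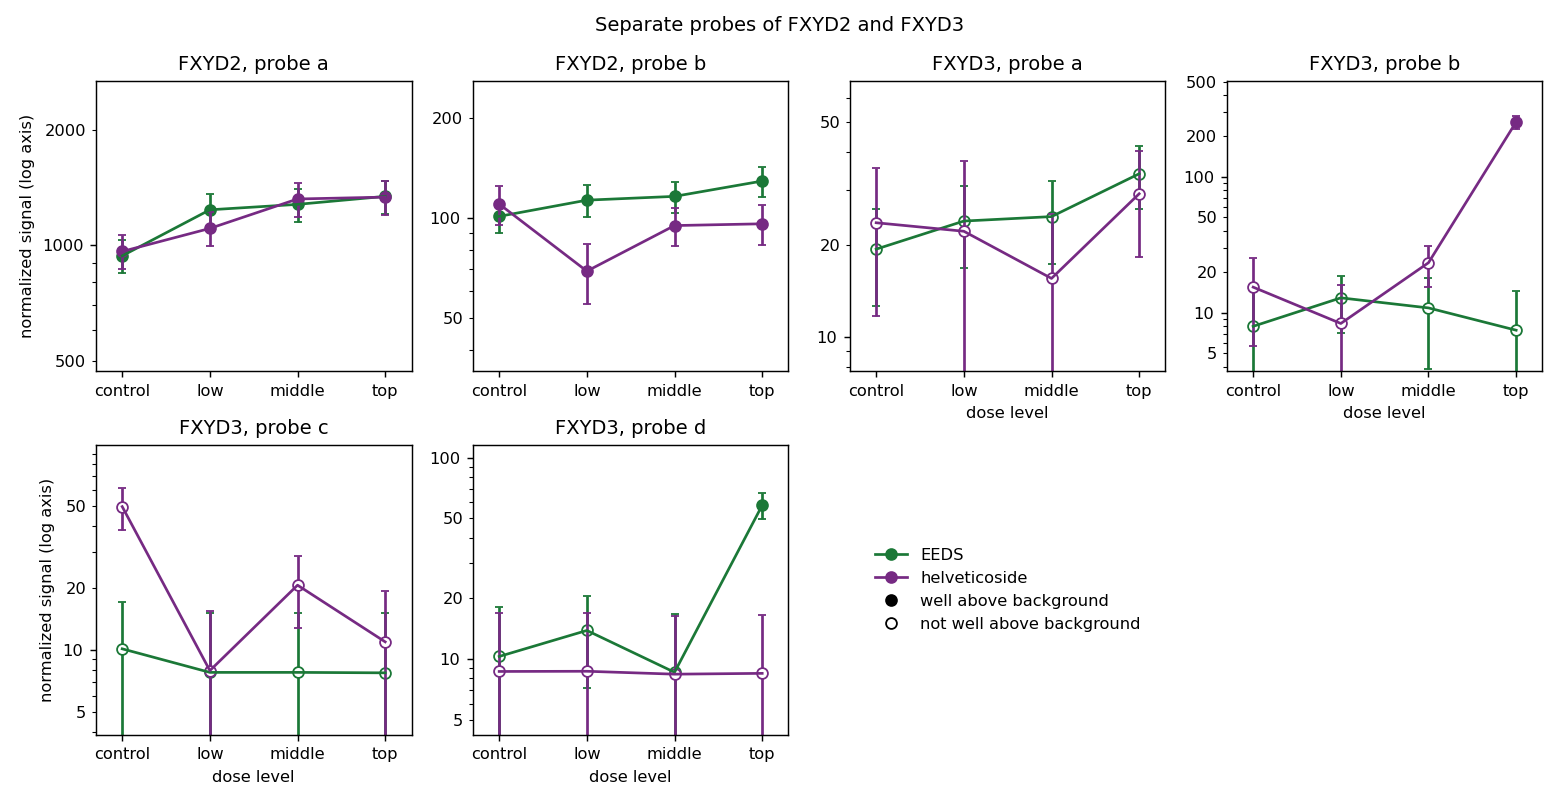
Normalized signal (vertical log axis, own range in each panel) of the 2 probes of FXYD2 and the 4 probes of FXYD3, from the brightest (a) on, on the control array and at the low, middle and top dose of EEDS (green) and helveticoside (purple). Each point is 1 array, bars are the scanner software's spot error drawn at no more than 95% of the signal, and open points were not well above background; FXYD3 probe b reads 252 at 60 nM helveticoside and probe d 57.9 at 20 μg/mL EEDS.

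The doses of an extract in μg/mL and of a compound in nM are not matched, so both agents were set side by side per dose step, and a difference between agents cannot be told apart from one between the series. The difference of the slopes (helveticoside minus EEDS) passed the limma test for 0 of 19046 genes (0%), with 525 genes at an unadjusted p under 0.05. For ATP1B1 it was 0.081 per step, with a 95% interval of -0.15 to 0.31 (adjusted p = 1). For ATP1B3 it was 0.16, with an interval of 0.013 to 0.31 (unadjusted p = 0.0381, adjusted p = 1), so ATP1B3 was not shown to respond differently to the agents. The intervals of the other 5 genes all held 0, the narrowest being that of FXYD2 (-0.20 to 0.21) and the widest that of FXYD3 (-0.72 to 0.31).

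**Figure D3:**
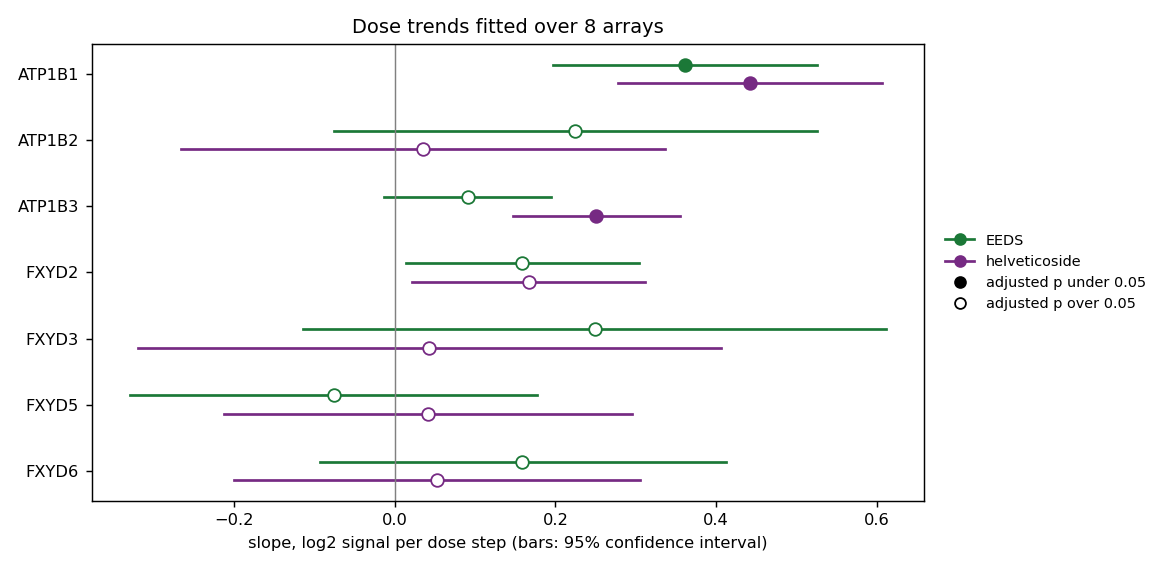
Slope of the log2 signal per dose step (horizontal axis) for each of the 7 genes with EEDS (green) and helveticoside (purple), with bars for the 95% confidence interval of the limma fit over 8 arrays and filled points where the adjusted p was under 0.05. ATP1B1 is filled for both agents (0.36 and 0.44) and ATP1B3 for helveticoside (0.25).

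The 2 control arrays were the pair of arrays without drug. The log2 ratio of the helveticoside control over the EEDS control was -0.25 for ATP1B1, -0.21 for ATP1B3, -0.27 for FXYD5, 0.038 for FXYD2, 0.53 for ATP1B2 and -0.089 for FXYD6, and none is given for FXYD3, which was not well above background on either. Over the 11493 genes that were well above background on each of the 8 arrays, the SD of this ratio was 0.48. The top-dose ratios of ATP1B1 (1.19 and 1.35) were larger than this, as was that of ATP1B3 with helveticoside (0.73), and that of FXYD2 lay close to it (0.52 with EEDS and 0.47 with helveticoside). That of ATP1B3 with EEDS (0.22) was smaller. This SD comes from 1 pair of arrays of different series and from genes of differing signal. It is a rough scale and not an error of these ratios. Set against the control of the other series, ATP1B1 still gave log2 ratios of 1.44 at 20 μg/mL EEDS and 1.10 at 60 nM helveticoside, and ATP1B3 gave 0.52 at 60 nM. When arrays were brought to a common 75th percentile, the median log2 ratio of all genes was -0.20, -0.21 and -0.36 over the rising EEDS doses and 0.14, -0.12 and -0.18 with helveticoside. On that scale ATP1B1 stood at 0.78, 1.05 and 1.11 with EEDS and at 0.79, 1.29 and 1.73 with helveticoside, and ATP1B3 at 1.07 at 60 nM.

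**Figure D4:**
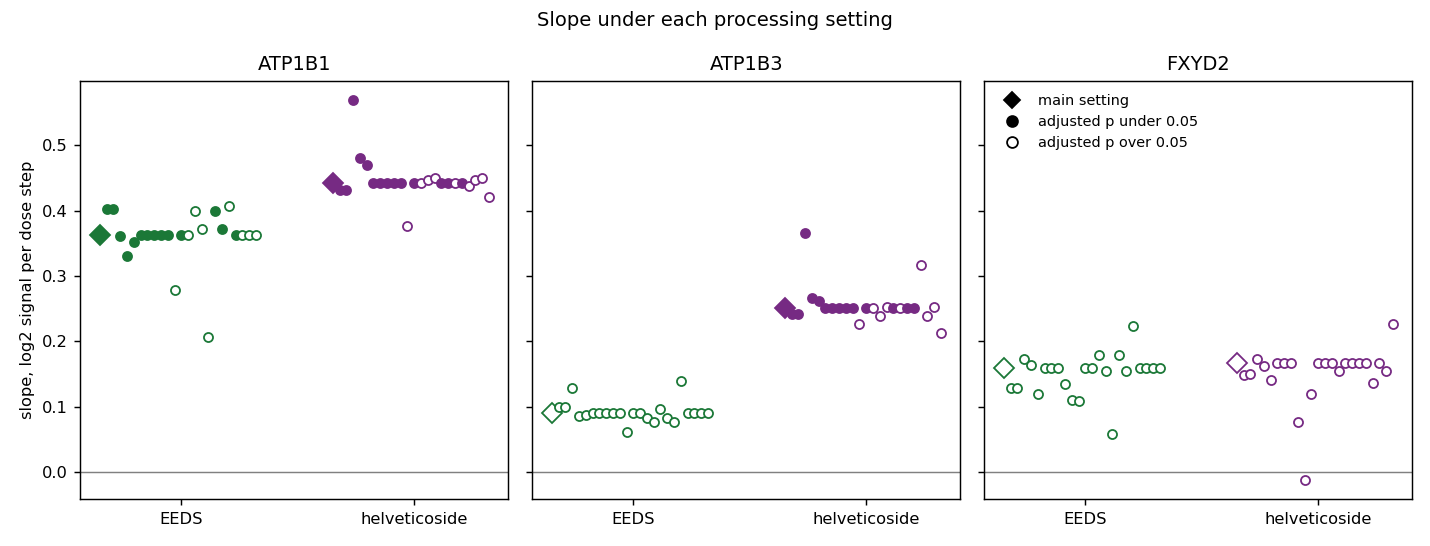
Slope per dose step (vertical axis) of ATP1B1, ATP1B3 and FXYD2 with EEDS (green) and helveticoside (purple) in the main setting (diamond) and under each other processing setting or with 1 array left out (circles), filled where the adjusted p was under 0.05. The ATP1B1 slopes stay between 0.21 and 0.41 with EEDS and between 0.38 and 0.57 with helveticoside, and FXYD2 is open in every setting.

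By the 6 log2 ratios to control, the genes whose pattern was most like that of ATP1B1 among 11492 other genes that were well above background on each of the 8 arrays were MBP, DOLPP1, PRRG1, SLC39A7 and UQCC6. The root mean square difference was 0.084 for MBP (myelin basic protein), 0.098 for DOLPP1 (a dolichol pyrophosphate phosphatase), 0.11 for PRRG1 (a membrane protein with a Gla domain), 0.11 for SLC39A7 (a zinc transporter of the endoplasmic reticulum) and 0.11 for UQCC6 (an assembly factor of the respiratory chain). MBP, the closest, had log2 ratios of 0.85, 0.89 and 1.20 with EEDS and 0.32, 0.90 and 1.43 with helveticoside. The likeness rests on 6 arrays that share 2 controls and is a description.

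Linked genes were taken from 5 lists, with 53 of 54 listed genes measured and 35 well above background on all 8 arrays. The lists were chosen with earlier results of these data known. Their shares beside those of all genes are therefore a description and cannot show that genes linked to the pump respond more. With EEDS 5 rose and 8 fell, that is 24.5% of them against 15.1% of all genes, and with helveticoside 5 rose and 5 fell (18.9%, against 11.3%). At 20 μg/mL 20 of the 53 (37.7%) were more than 2-fold from the control, against 27.8% of all genes, and at 60 nM 19 (35.8%), against 23.6%. With 1 array left out at a time, 0 to 11 linked genes had a trend with EEDS and 0 to 3 with helveticoside. Over all genes these counts were 0 to 2625 and 0 to 1479.

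Of the 4 other beta-subunit and FXYD genes on the array, ATP1B4, FXYD1, FXYD4 and FXYD7, none was well above background on all arrays and none passed the test. Among 12 other ion pumps of the same enzyme class and their partners, 1 rose and 1 fell with EEDS and 3 rose and 1 fell with helveticoside. Of the 3 that rose with helveticoside, 1 was well above background on 6 arrays, 1 on 1 array and 1 on 0 arrays. Over all genes 7.27% rose and 7.85% fell with EEDS, and 5.48% rose and 5.8% fell with helveticoside. These shares are also the background for the lists that follow. The median slope of this list was 0.004 and 0.048, beside 0.007 and -0.006 over all genes. ATP2A2, the calcium pump of the endoplasmic reticulum, fell with both agents. Its log2 ratios were -0.43, -1.19 and -2.34 with EEDS and -0.39, -0.96 and -2.05 with helveticoside, and its slopes were -0.78 (SE 0.104, limma adjusted p = 0.0163) and -0.67 (SE 0.104, adjusted p = 0.0252). ATP2B4, a calcium pump of the plasma membrane, had log2 ratios of -1.60 and -1.44 at the top doses, and its slopes did not pass the test (limma adjusted p = 0.0776 and 0.122).

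Among 16 regulators of the pump and its kinases, 2 rose and 3 fell with EEDS and 1 rose and 2 fell with helveticoside, with a median slope of 0.024 and 0.12. ANK3 (ankyrin-G), which ties membrane proteins to the spectrin skeleton, fell with both, to log2 ratios of -2.41 at 20 μg/mL and -2.23 at 60 nM. Its slopes were -0.85 (SE 0.129, limma adjusted p = 0.0192) and -0.78 (SE 0.129, adjusted p = 0.0272).

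Among 16 carriers and channels that run on or feed the sodium gradient, 2 rose and 2 fell with EEDS and 1 rose and 1 fell with helveticoside, with a median slope of 0.055 and 0.06. Of the 2 that rose with EEDS, 1 was well above background on 1 array alone. SLC38A2, a carrier that brings neutral amino acids in with sodium, rose with both, with log2 ratios of 1.52, 1.81 and 2.28 with EEDS and 0.67, 1.56 and 2.26 with helveticoside (limma adjusted p = 0.0229 and 0.0253). SLC8B1, the sodium and calcium exchanger of mitochondria, fell with both, to -2.51 and -2.45 at the top doses (adjusted p = 0.0334 and 0.04). SLC12A2, which carries sodium, potassium and chloride into the cell, fell with EEDS to -1.48 (adjusted p = 0.0401) and stood at -1.32 at 60 nM, where its slope missed the threshold (adjusted p = 0.0518). SLC12A4, which carries potassium and chloride out of the cell, stood at 1.44 and 1.32, with slopes that did not pass (adjusted p = 0.0586 and 0.0761).

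Among 5 adhesion partners, chosen because beta subunits and FXYD5 act at cell contacts, none rose, 2 fell with EEDS and 1 with helveticoside, with a median slope of -0.16 and -0.049. CDH1 (E-cadherin), also one of the A549 markers, fell with both, with log2 ratios of -0.39, -2.31 and -2.71 with EEDS and 0.17, -1.52 and -2.71 with helveticoside (limma adjusted p = 0.0364 and 0.0452). JUP (plakoglobin), which links cadherins to the cell skeleton, fell with EEDS to -2.01 (adjusted p = 0.0176) and stood at -1.11 at 60 nM (adjusted p = 0.0674).

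**Figure D5:**
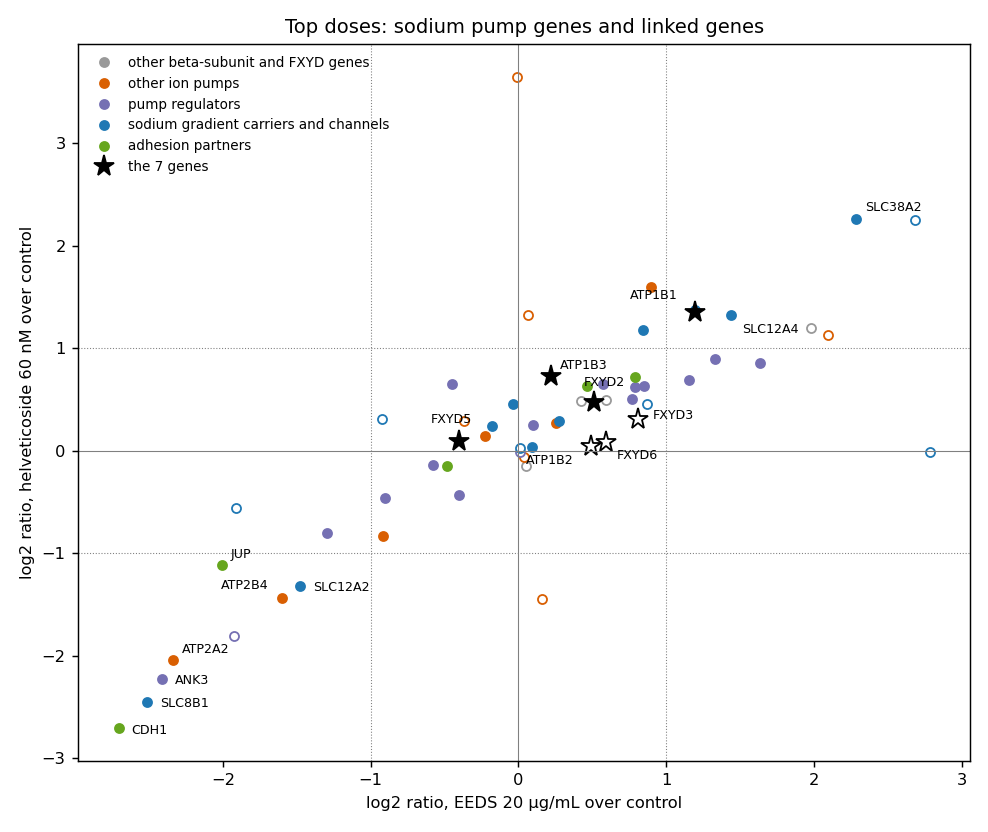
Log2 ratio to the own control at 20 μg/mL EEDS (horizontal axis) and at 60 nM helveticoside (vertical axis) for the 7 genes (stars) and the 53 linked genes (circles, coloured by list), with 1 array per dose and dotted lines at 2-fold. Filled symbols were well above background on all 8 arrays; ATP1B1 lies at 1.19 and 1.35, and CDH1 at -2.71 and -2.71.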

How the data were processed

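The authors deposited the intensity of each spot on 8 Agilent arrays as read by the scanner software (Feature Extraction, per the methods), with its local background, background-corrected signal, spot error and flags, and a table of processed intensity values. The genome build of the probes is not given in the sources used here. Per the study's methods, spots under 1.4 times the local background were left out and arrays were quantile-normalized.

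Here, control and outlier spots were removed, the corrected signal was quantile-normalized over 8 arrays and put on the log2 scale, and 24812 of 34127 probes were matched to 19056 genes of GRCh38.p14, with the brightest probe used for a gene (4797 genes had several). Genes over 1.4 times the background on 1 or more arrays of both series were kept (19046). Where 1 array of a pair was not well above background, a fold given as "at least" is a bound. It was taken against the lowest signal well above background on that array, or the probe's own signal where that was higher. The trend fit, checked on simulated data, used limma 3.58.1 in R 4.3.3 with its trend and robust options (statmod 1.5.0) and a threshold of 0.05. Sequences were searched with Python 3.11.15 and pandas 2.3.3, and matplotlib drew the plots.

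The 7 genes and the linked lists were chosen with earlier results of these data known. Named were all 7 genes, up to 4 genes per linked list over 2-fold in the same direction at both top doses and well above background on all arrays, and the 5 genes most like ATP1B1, the member over 2-fold at a top dose. Values of some other genes of the pump are not reported here. The alternatives covered background correction, normalization, filters, probe choice, the control array, the dose scale, the fit and single arrays. Precision is limited by the small number of arrays, and with RNA pooled from cultures the p-values measure only the scatter of single arrays.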

Additional observations from a re-analysis of the deposited data

Results flagged for a closer look

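A pair of single readings came from FXYD3 probes that did not stand for the gene in the comparisons, each well above background on 1 treated array and not on its control. One probe was at least 5.36-fold higher at 60 nM helveticoside and another at least 2.47-fold higher at 20 μg/mL EEDS. Each rests on 1 spot of 1 array, and the other 3 probes of FXYD3 were not well above background on the same array.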

How the results depend on the processing

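Every slope of ATP1B1 and of ATP1B3 kept its direction in all settings, and no called value was reversed. The calls of ATP1B1 with EEDS and of ATP1B1 and ATP1B3 with helveticoside held under all changes of background correction and normalization and without trend or robust estimation. The scanned signals of both genes were 981 to 4130 times the local background, so the changes of background correction test these calls little. The filters and the choice of probe left these slopes as they were by construction, since both genes have 1 probe and passed every filter, and so do not test them. They were lost with the dose on a linear scale (slopes of 0.278, 0.376 and 0.226 over the same span), with the 4 arrays of a series alone (0.362, 0.442 and 0.251), without the lowest doses (0.399, 0.447 and 0.238) and without the middle doses (0.371, 0.449 and 0.253), where the members called were 0 for both agents. With 4 arrays of a series alone or without the lowest or middle doses, 0 genes in all and 0 linked genes had a trend with either agent, and these fits hold fewer arrays. With 1 array left out at a time, the slopes ranged from 0.206 to 0.407, from 0.421 to 0.449 and from 0.212 to 0.317, the members called from 0 to 1 with EEDS and from 0 to 2 with helveticoside, all genes called from 0 to 2625 and from 0 to 1479 (2879 and 2147 with all arrays), and linked genes called from 0 to 11 and from 0 to 3 (13 and 10 with all arrays). The EEDS count was 0 without the EEDS control or the 20 μg/mL array, and the helveticoside count 0 without the 15 or the 60 nM array.

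On the authors' processed values 4613 genes had an EEDS trend. On a linear dose scale 788 genes had a helveticoside trend, 3 genes had a slope difference and 5 linked genes had a helveticoside trend. That last number was 6 with normalization within each series and 6 with the second brightest probe. FXYD3 had a called helveticoside slope of 0.569 on the signal as scanned and 0.588 after normexp correction, where another of its probes was the brightest. Members over 2-fold at 60 nM were 2 in place of 1 on the signal as scanned, after normexp correction, with 75th percentile scaling, on the authors' values and with the second brightest probe, where 13.3%, 13.6%, 22.6%, 12% and 23.8% of all genes were over 2-fold. Scaling to the 75th percentile also put 1 of 7 members (14.3%) over 2-fold at 5 μg/mL and at 15 nM, against 19% and 13.6% of all genes. The control of the other series put 1 of 7 there at 1.25 and at 5 μg/mL, against 17% and 23.8% of all genes. With limits of 1.5-fold and 3-fold, 31 and 14 linked genes passed at 20 μg/mL (20 at 2-fold) and 30 and 9 at 60 nM (19 at 2-fold). The share of all genes past 1.5-fold and 3-fold was not counted. At 60 nM and 2-fold the number was 12 on the signal as scanned, 12 after normexp correction and 11 on the authors' values. There 13.3%, 13.6% and 12% of all genes were over 2-fold, against 23.6% in the main setting. Among genes well above background on all arrays the number was 12 of 35 linked genes, against 24.2% of all genes. For the other changes the cause was not tested.

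No paired analysis was possible because each dose had 1 array. ATP1B2, FXYD3 and FXYD6 lay near background, which limits what their ratios can show.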

Other observations

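Some linked genes outside the naming rule, chosen after their values were seen, had large ratios as well. SLC38A1, a relative of SLC38A2 that also carries amino acids with sodium, had log2 ratios of 1.20 at 20 μg/mL EEDS and 1.37 at 60 nM helveticoside, but its slopes did not pass the limma test (adjusted p = 0.217 and 0.144). SGK1, a kinase that raises sodium transport, had 1.33 and 0.90 (adjusted p = 0.176 and 0.355), and its relative SGK2 fell with both agents, to -1.93 and -1.81 (adjusted p = 0.0269 and 0.0378), with 7 of 8 arrays well above background. CAV1, the main protein of caveolae, rose with both, to 1.15 and 0.69 (adjusted p = 0.019 and 0.0499).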
